A study of Mus musculus with 24 samples.

Results

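The phagocyte NADPH oxidase and related genes were examined across experimental autoimmune myocarditis (EAM), an inflammation of the heart that is raised in mice by immunization against a heart muscle protein. The genes were taken by symbol and matched to the Ensembl identifiers of the count table. They were Cybb, Cyba, Ncf1, Ncf4 and Rac2 of the phagocyte oxidase, Nox4, a second oxidase of the same family, and the superoxide dismutases Sod2 and Sod3. All 8 were matched, out of 41388 Ensembl genes in the table, and all 8 passed the filter on low counts at every time point. The data are RNA-seq libraries of 24 hearts, a portion of each heart being used, with 4 EAM and 4 control hearts at day 10, day 15 and day 21 of the protocol (D10, D15, D21). All hearts came from wild type, male, young adult Balb/c mice, of the BALB/cAnNCrl substrain according to the study's methods. EAM mice received 100 µg of a myosin heavy chain peptide, emulsified in an adjuvant, on days 0 and 7, together with pertussis toxin on day 0. Control mice received the same adjuvant and pertussis toxin with PBS in place of the peptide, so that both groups carry the effect of the adjuvants. According to the study's methods, hearts for RNA were picked as far as possible to show inflammation, because the disease may not develop in every immunized mouse. The EAM groups are therefore not a random draw of immunized mice. At D10 the study found neither raised leucocytes in the heart nor raised cardiac troponin I in any EAM mouse.

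The phagocyte NADPH oxidase moves electrons from NADPH across a membrane to oxygen and so makes superoxide, which neutrophils and macrophages use to kill microbes. Its catalytic core is a membrane heterodimer of the Cybb product (gp91phox, also called NOX2) and the Cyba product (p22phox). On activation the cytosolic subunits encoded by Ncf1 (p47phox) and Ncf4 (p40phox), among others, move to the membrane, together with a Rac GTPase, which in haematopoietic cells is largely Rac2. Nox4 also pairs with p22phox, but needs none of the cytosolic subunits and makes mainly hydrogen peroxide. It is expressed in non-haematopoietic cells, among them those of the vessel wall, fibroblasts and cardiac muscle. Superoxide dismutases turn superoxide into hydrogen peroxide, Sod2 in mitochondria, Sod3 outside the cell and Sod1 in the cytosol.

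Total counts per library lay between 15814863 and 24980864, and 3 counts, the limit that a count of 0 allows, correspond to between 0.120 and 0.190 CPM (counts per library scaled to an equal total). Such limits cover counting error only. Markers of cardiomyocytes were present in all 24 hearts, with none of the 7 at 0 in any heart. The 4 EAM libraries of D21 carry another library code than the other 20 libraries, so that at D21 the library code and EAM cannot be told apart. Expression is given below as CPM after TMM normalization over the 24 libraries, unless stated per kilobase. For each day the 4 EAM hearts were tested against their 4 controls with the quasi-likelihood test of edgeR, and p-values were adjusted by Benjamini-Hochberg over every gene tested. A gene was called where the adjusted p was under 0.01 and the change at least 2-fold. Fold changes are given on the log2 scale with their standard error. That error was derived from the test, as the size of the log2 change over the square root of the F statistic.

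At D15 all 5 genes of the phagocyte oxidase rose, by 2.65 to 4.54 on the log2 scale, and Sod3 rose by 1.28, while Nox4 was not called and Sod2 was lower by a little under 2-fold. At D10 no gene was called, although 1 of the 4 EAM hearts lay just below the range of the D15 EAM hearts for Cyba, Ncf1, Ncf4 and Rac2. At D21 the same 5 oxidase genes were called with smaller fitted changes and a wide spread between hearts. These are bulk libraries of heart tissue, in which fewer cells of a type and less RNA per cell cannot be told apart.

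Cybb (ENSMUSG00000015340, chrX:9435252-9487771 of GRCm38, minus strand) encodes the catalytic subunit. In the 4 control hearts of D15 it stood at 31.5, 30.0, 32.6 and 29.7 CPM, and in the 4 EAM hearts at 760, 812, 550 and 690 CPM. The groups did not overlap, and the lowest EAM heart lay far above the highest control. The log2 fold change was 4.54 ± 0.14 (edgeR, adjusted p = 1.74e-08), a 23.3-fold difference and the largest of the 8 genes at D15. At D21 control hearts held 40.0, 35.8, 29.9 and 53.7 CPM and EAM hearts 385, 209, 92.3 and 485 CPM. The groups again did not overlap, and EAM replicate 3 was the lowest of the EAM hearts. The fold change at D21 was 2.91 ± 0.49 (edgeR, adjusted p = 0.0068).

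Cyba (ENSMUSG00000006519, chr8:122424776-122432930, minus strand) encodes the small membrane subunit that stabilizes both gp91phox and NOX4. In D15 control hearts it stood at 34.2, 32.5, 32.1 and 35.2 CPM and in D15 EAM hearts at 225, 231, 170 and 190 CPM. The groups were well apart, but the change of 2.65 ± 0.11 (edgeR, adjusted p = 8.11e-08) was the smallest of the 5 oxidase genes. At D21 control hearts held 34.4, 34.3, 30.1 and 42.6 CPM and EAM hearts 194, 98.5, 54.8 and 189 CPM. EAM replicate 3 was again the lowest and still lay above every control. The D21 change was 1.96 ± 0.38 (edgeR, adjusted p = 0.00982), just inside the limit.

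Ncf1 (ENSMUSG00000015950, chr5:134220053-134229625, minus strand) encodes the organizer subunit p47phox, whose phosphorylation starts assembly of the enzyme. Its level was 8.18, 12.9, 11.8 and 13.4 CPM in D15 control hearts and 190, 227, 167 and 174 CPM in D15 EAM hearts. The change was 4.07 ± 0.17 (edgeR, adjusted p = 9.07e-08). At D21 control hearts held 11.3, 10.1, 7.27 and 13.7 CPM against 112, 56.4, 25.9 and 146 CPM in EAM hearts, a change of 3.05 ± 0.52 (edgeR, adjusted p = 0.0069). No EAM heart of D15 or D21 overlapped the controls of its day. An exon of Ncf1 overlaps Gtf2ird2 on the opposite strand, and how strand was treated in the counting is not given here. Gtf2ird2 itself stood at 8.86 to 10.8 CPM in D15 control hearts and 9.82 to 11.0 CPM in D15 EAM hearts and was not called at any time point.

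Ncf4 (ENSMUSG00000071715, chr15:78244801-78262580, plus strand) encodes p40phox, which binds a phosphoinositide of phagosome membranes. It stood at 3.34, 5.32, 5.75 and 4.77 CPM in D15 control hearts and 104, 105, 94.2 and 99.3 CPM in D15 EAM hearts. The EAM hearts of D15 were closely spaced, at 101 ± 5.17 CPM (SD, n = 4). The change was 4.43 ± 0.14 (edgeR, adjusted p = 2.01e-08). At D21 it stood at 5.75, 5.62, 4.12 and 6.71 CPM in control hearts and at 63.4, 31.3, 13.8 and 86.0 CPM in EAM hearts. The D21 change was the largest of the 8 genes, 3.17 ± 0.54 (edgeR, adjusted p = 0.00684).

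Rac2 (ENSMUSG00000033220, chr15:78559167-78572783, minus strand) encodes the GTPase that switches the assembled enzyme on in neutrophils. Control hearts of D15 held 9.17, 10.8, 12.1 and 10.2 CPM and EAM hearts 151, 145, 123 and 135 CPM. The change was 3.75 ± 0.11 (edgeR, adjusted p = 1.4e-08), with no overlap. At D21 control hearts held 14.0, 10.1, 8.71 and 15.7 CPM and EAM hearts 93.5, 50.03, 30.6 and 105 CPM. The fold change was 2.56 ± 0.41 (edgeR, adjusted p = 0.00642).

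**Figure D1:**
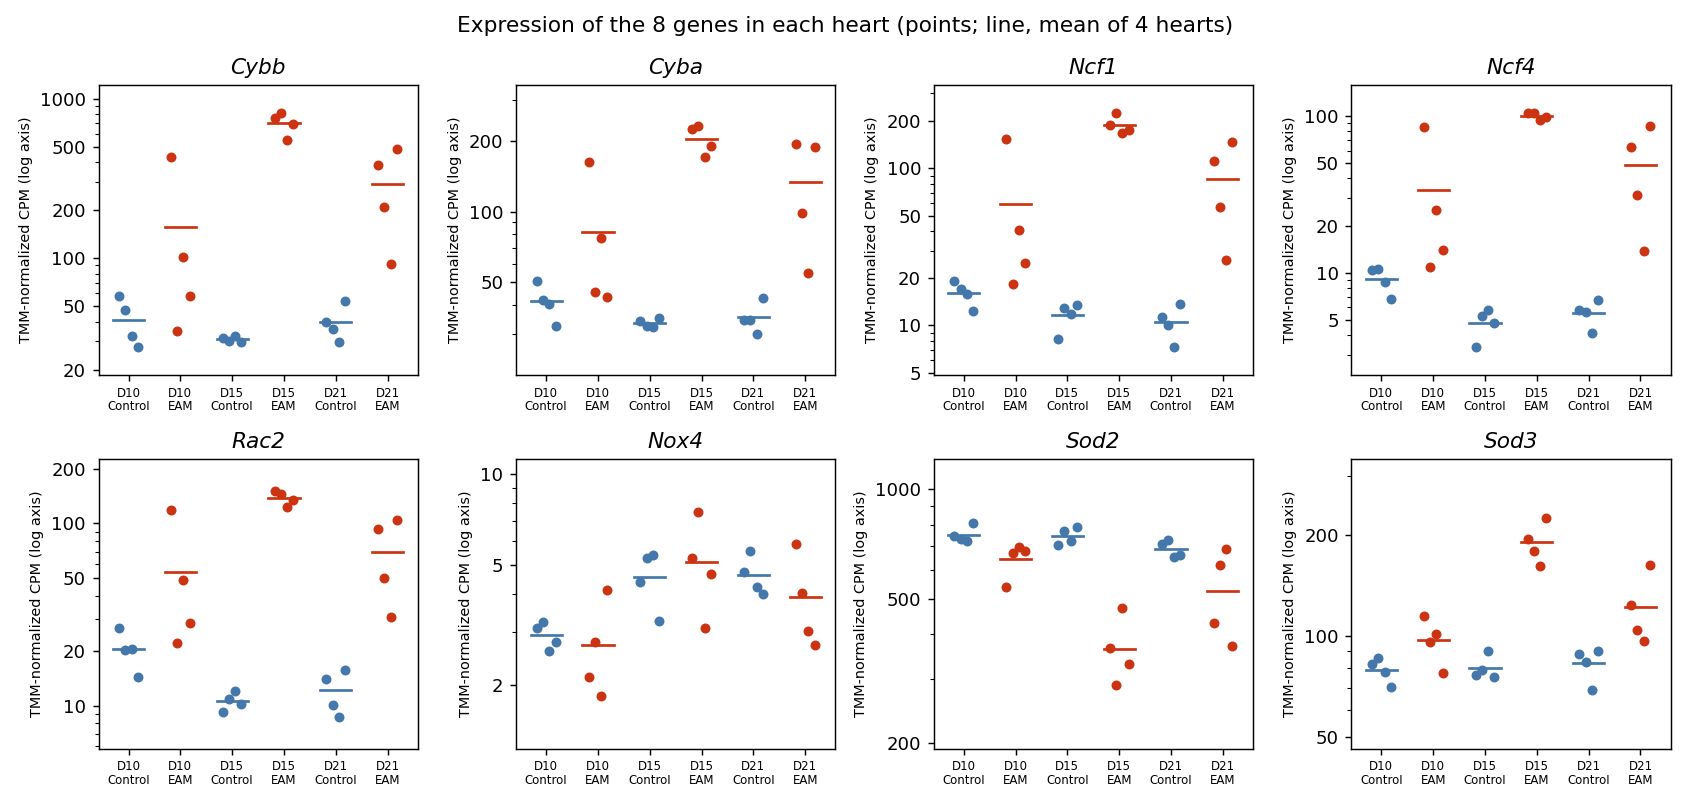
TMM-normalized CPM of each of the 8 genes on a log axis in every heart (points, with a line at the mean of 4 hearts), for control (blue) and EAM (red) hearts at D10, D15 and D21. The 5 oxidase genes are tightly grouped at D15 in EAM hearts and widely spread at D10 and D21, where Cybb ranged from 34.7 to 428 CPM and from 92.3 to 485 CPM.

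Of the 8 genes, 6 were called higher and 0 lower at D15, against 18.1% of all 15693 genes called higher and 12.9% called lower. At D21 5 were called higher, against a background of 4.13% of 15266 genes, and 0 lower, against 1.16%. The median log2 fold change over the 8 genes was 3.20 at D15 and 2.26 at D21, and over all genes tested it was 0.02 and -0.01. The EAM hearts did not overlap the controls and were higher for 6 of the 8 genes at both D15 and D21, where 34.6% and 17.8% of all genes did so. They did not overlap and were lower for 1 gene (Sod2) at D15, as for 35.9% of all genes, and for 0 at D21, against 18.7%. The calls at D21 depended on the tool and on single libraries. Limma-voom called 0 of the 8 genes at D21. Without any 1 of the 4 control hearts, or without EAM replicate 1 or 2, none of the 5 genes was called, with adjusted p of at most 0.0384 in those fits, and between 0 and 40 genes were called in the whole table against 807 with all 8 hearts. Without EAM replicate 3 all 5 were called, with 2006 genes in the whole table, and without EAM replicate 4 all but Cyba, with 434. The fitted Cybb change stayed between 2.55 and 3.20 when each heart was left out in turn.

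Markers of phagocytes, the cells that use this oxidase, moved with the oxidase genes. All 10 monocyte and macrophage markers and all 10 neutrophil markers were called higher at D15, against 18.1% of all genes, and 4 and 1 of them at D21, against 4.13%. The summed level of the macrophage markers was 3230 to 4457 CPM in D15 EAM hearts against 514 to 573 CPM in controls, and that of the neutrophil markers was 640 to 1210 CPM against 21.6 to 97.3 CPM. At D21 the macrophage sum was 1227 to 4067 CPM against 459.7 to 711 CPM and the neutrophil sum 135 to 472 CPM against 13.7 to 130 CPM. None of these 20 markers was at 0 in any heart. Ptprc, the pan-leucocyte antigen CD45, was called at D15 (3.98 ± 0.12) and at D21 (2.58 ± 0.46). All 8 T cell markers were called higher at both days, and 1 of the 3 B cell markers tested at D15. Of the 4 B cell markers 1 was tested at D21, and it was not called. The part of these cells in the oxidase result was not tested beyond the ratios to Ptprc given further on.

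At D10 0 of the 8 genes were called, as was no gene of the 15029 tested (0% higher), and DESeq2, edgeR's likelihood ratio test and limma-voom also called 0 of the 8. At an unadjusted p under 0.05, 6 of the 8 were higher in EAM hearts, against 9.71% of all genes. The fitted changes were 1.91 ± 0.73 for Cybb, 0.98 ± 0.40 for Cyba, 1.87 ± 0.63 for Ncf1, 1.88 ± 0.62 for Ncf4 and 1.40 ± 0.50 for Rac2, and the adjusted p was 0.328 for each.

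Of the single hearts, Cybb was at 57.6, 46.9, 32.4 and 27.8 CPM in D10 control hearts and at 428, 34.7, 101 and 58.2 CPM in EAM hearts. EAM replicate 1 was the highest D10 heart for all 5 oxidase genes, at 10.4 times the D10 control mean for Cybb, 9.56 for Ncf1, 9.36 for Ncf4, 5.79 for Rac2 and 3.93 for Cyba. EAM replicate 3 came next, at 1.86 to 2.75 times the control mean. Replicate 4 lay between 1.05 and 1.54 times and replicate 2 between 0.842 and 1.19 times the control mean. Ncf4 was the only one of the 8 genes that was higher in every D10 EAM heart than in every control, with 85.3, 10.8, 25.1 and 14.0 CPM against 10.5, 10.6, 8.65 and 6.74 CPM. A share of 4.41% of all genes did so.

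The same D10 heart, EAM replicate 1, also had the highest Ptprc, 194 CPM against 27.7 to 56.7 CPM in the other 3 EAM hearts, the highest macrophage sum, 2896 CPM against 797 to 1468 CPM, and the lowest sum of cardiomyocyte markers, 17770 CPM against 27288 to 31465 CPM. Without it the fitted D10 changes were 0.64 for Cybb, 0.41 for Cyba, 0.78 for Ncf1, 0.85 for Ncf4 and 0.68 for Rac2. When the D10 EAM hearts were compared with all 12 control hearts, the 5 oxidase genes were called, with adjusted p of 0.00108 to 0.00302 and a background of 4.07% of genes called higher. That comparison also carries any difference between control hearts of different days.

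Whether the effect of EAM differed from day to day was tested in a fit of all 24 hearts. From D10 to D15 only Rac2 was called, with an increase of the effect of 2.30 ± 0.58 (edgeR, adjusted p = 0.00446), against 5.38% of 16318 genes called higher. None was called lower, against 7.35%. The other 4 oxidase genes missed the limit on the adjusted p of edgeR. Their differences were 2.59 ± 0.78 for Cybb (adjusted p = 0.0119) and 2.50 ± 0.74 for Ncf4 (adjusted p = 0.0104). For Ncf1 the difference was 2.15 ± 0.73 (adjusted p = 0.0217), and the smallest was that of Cyba, 1.62 ± 0.50 (adjusted p = 0.0135). Rac2 was not called without D10 control replicate 1 or D10 EAM replicate 3 or 4. Without D10 EAM replicate 1 all 5 oxidase genes and Sod3 were called, and the increase was 3.86 for Cybb and 3.02 for Rac2. Over all genes, 1999 were then called higher and 1741 lower, against 878 and 1199 with all hearts. With D21 EAM replicate 3 or 4 left out 4 and 3 of the 8 were called, beside 1102 and 1052 genes higher and 1343 and 1394 lower in the whole table. Without D15 control replicate 3 or D15 EAM replicate 2 or 3 the number was 2, beside 546 to 1024 genes higher.

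From D15 to D21, a contrast that shares the D15 hearts with the one before, 0 of the 8 genes were called by edgeR, DESeq2 or limma-voom, while 2.74% of genes were called higher and 0.919% lower. At an unadjusted p under 0.05, 1 gene was higher (Sod2), against 23.4% of genes, and 2 lower (Cybb and Sod3), against 17.3%. The Cybb effect differed by -1.63 ± 0.77 (adjusted p = 0.12) and that of Rac2 by -1.19 ± 0.58 (adjusted p = 0.127).

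**Figure D2:**
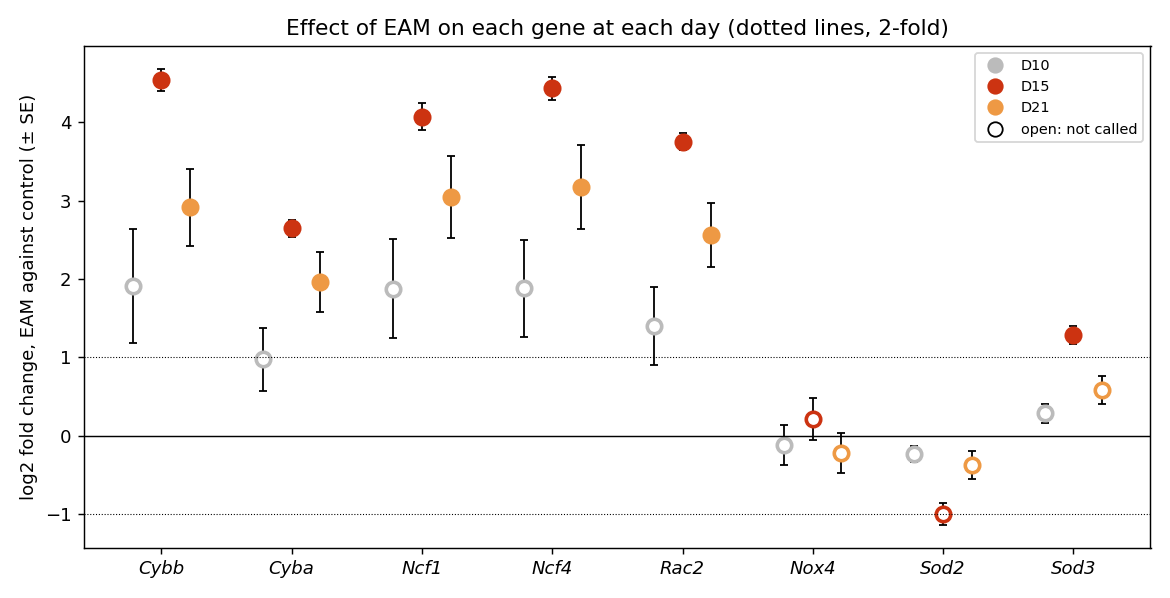
Fitted log2 fold change of EAM against control hearts (± SE, 4 against 4 hearts) for each gene at D10, D15 and D21. Filled points passed the adjusted p of 0.01 and the 2-fold limit, and dotted lines mark a 2-fold change. Standard errors of the oxidase genes are smallest at D15, and Sod2 at D15 sits on the lower dotted line as an open point.

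By mean level the groups followed the order D15 EAM, D21 EAM, D10 EAM and then the 3 control groups for all 5 oxidase genes. The D21 and D10 EAM hearts overlapped for each of them, and the D10 EAM and D10 control hearts for all but Ncf4. Control hearts kept a measurable level of each gene. Over the 12 control hearts Cybb ranged from 27.8 to 57.6 CPM and Cyba from 30.1 to 50.7 CPM, whereas Ncf4 ranged from 3.34 to 10.6 CPM. None of the 8 genes was called between control hearts of D10 and D15 or of D10 and D21 by edgeR, where 0.00613% and 0.123% of genes were called higher and 0.0858% and 0.0919% lower. At an unadjusted p under 0.05 Nox4 was higher at both later days (0.64 ± 0.28 and 0.66 ± 0.28) and Rac2 lower at D15 (-0.95 ± 0.42). At that limit 3.45% and 7.52% of genes were higher at D15 and D21, and 3.24% lower at D15. Markers of neutrophils moved with Rac2 between these control hearts, with 7 of 10 lower at D15 at the same limit (median -1.74), and their sum was 145 to 282 CPM in D10, 21.6 to 97.3 CPM in D15 and 13.7 to 130 CPM in D21 control hearts. Of the 10 macrophage markers 2 were lower at D15 at that limit (median -0.53). Their sum was 519.6 to 1133.5 CPM in D10, 513.8 to 572.7 CPM in D15 and 459.7 to 711 CPM in D21 control hearts. Ptprc differed by -0.80 ± 0.46 between D10 and D15 controls (edgeR, adjusted p = 0.876). The part of these cells in the Rac2 values was not tested.

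Corrected for gene length, the subunits stood in a different order than by CPM. Per kilobase of exon the mean over D15 EAM hearts was 197 ± 28.1 CPM (SD, n = 4) for Cyba, 121 ± 19.6 for Cybb, 51.7 ± 7.23 for Ncf1, 49.9 ± 2.56 for Ncf4 and 44.6 ± 3.98 for Rac2. In D15 control hearts Cyba again led with 32.2 ± 1.38 CPM per kilobase, followed by Cybb at 5.33 ± 0.23, Rac2 at 3.40 ± 0.39, Ncf1 at 3.16 ± 0.65 and Ncf4 at 2.37 ± 0.52. The exon lengths are of the GENCODE M21 annotation, which is not the release the authors counted with.

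Promoters of the 8 genes were looked up as a description of their sequence. RefSeq promoters of GRCm38.p6, from 250 bases before to 50 after the start, were found for 5 of the 8 genes (Cyba, Cybb, Ncf1, Nox4 and Sod2). They were searched on both strands for GAGGAA (the ETS or PU.1 core), a consensus of the interferon response element with 2 free positions, TTCNNNGAA (a STAT site), a consensus of the NF-kappaB site with 1 free position, TGAGTCA (AP-1) and TGACNNNGC (the core of the antioxidant response element). The promoters of the 3 oxidase genes are printed 5′ to 3′ on the strand of the gene, with the bases of any match in capitals.
Cybb (chrX:9469275-9469574, minus strand): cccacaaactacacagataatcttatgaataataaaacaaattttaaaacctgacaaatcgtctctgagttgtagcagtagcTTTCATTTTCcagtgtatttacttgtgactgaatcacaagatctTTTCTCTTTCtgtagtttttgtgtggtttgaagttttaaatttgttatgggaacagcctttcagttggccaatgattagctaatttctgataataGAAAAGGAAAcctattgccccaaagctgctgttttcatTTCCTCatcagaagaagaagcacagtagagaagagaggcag
Ncf1 (chr5:134229576-134229875, minus strand): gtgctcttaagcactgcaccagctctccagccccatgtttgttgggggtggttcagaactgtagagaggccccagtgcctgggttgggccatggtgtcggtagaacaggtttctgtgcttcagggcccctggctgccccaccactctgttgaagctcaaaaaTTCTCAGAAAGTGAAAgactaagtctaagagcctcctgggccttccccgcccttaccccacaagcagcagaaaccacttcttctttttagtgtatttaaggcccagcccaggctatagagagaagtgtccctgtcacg
Cyba (chr8:122432891-122433190, minus strand): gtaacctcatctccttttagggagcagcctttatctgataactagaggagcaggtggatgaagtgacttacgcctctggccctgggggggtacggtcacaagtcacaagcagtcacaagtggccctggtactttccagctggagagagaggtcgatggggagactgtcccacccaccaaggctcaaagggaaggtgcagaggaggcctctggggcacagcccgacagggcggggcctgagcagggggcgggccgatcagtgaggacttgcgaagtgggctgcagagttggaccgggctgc

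The Cybb promoter held 3 matches to the interferon response element and 1 to GAGGAA, the latter on the opposite strand. The Ncf1 promoter held 1 match to the interferon response element, which overlaps a match to TTCNNNGAA, and the Cyba promoter held none of the 6 motifs. Of 32851 promoters of this length, 3.44% held the interferon response element, 28.3% GAGGAA and 8.3% TTCNNNGAA. TTCNNNGAA was also found in the promoters of Nox4 and Sod2, and GAGGAA in that of Sod2. The part of these motifs in the changes was not tested. The NF-kappaB site, TGAGTCA and TGACNNNGC, held by 0.411%, 5.2% and 12.4% of promoters, matched none of the 5. A match is a description of the letters and does not show that a factor binds.

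Nox4 (ENSMUSG00000030562, chr7:87246096-87398710, plus strand) stood apart from its relative Cybb. It was low in every heart, from 1.84 to 7.50 CPM, or 33 to 214 counts. At D15 it was at 4.38, 5.26, 5.39 and 3.24 CPM in control hearts and at 5.25, 7.50, 3.08 and 4.67 CPM in EAM hearts, so that the groups overlapped. The difference was 0.21 ± 0.27 at D15 (edgeR, adjusted p = 0.499), -0.12 ± 0.26 at D10 (adjusted p = 0.81) and -0.22 ± 0.26 at D21 (adjusted p = 0.53). Those at D10 and D15 changed sign when 1 EAM heart was left out. By level, the D15 EAM, D21 control, D15 control and D21 EAM groups followed each other with overlapping hearts at means of 3.90 to 5.12 CPM, and then came the D10 control and D10 EAM groups at 2.92 and 2.71 CPM. Each group overlapped the next in this order. Per kilobase Nox4 reached 0.605 ± 0.216 CPM (SD, n = 4) in D15 EAM hearts, against 121 for Cybb. The summed endothelial markers were at 598 to 660 CPM in D15 EAM hearts and 900 to 1191.5 CPM in D15 controls. Those of smooth muscle were at 293 to 334 CPM and 634 to 838.5 CPM. Markers of fibroblasts and cardiomyocytes are given below. The part of these cells in the Nox4 values was not tested.

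The dismutases moved in different directions. Sod2 (ENSMUSG00000006818, chr17:13006846-13040063, plus strand), the manganese enzyme of mitochondria, had 74.4 ± 3.95 CPM per kilobase (SD, n = 4) in D15 control hearts, the highest of the 8 genes there. In CPM, at D15 it stood at 703, 769, 721 and 787 CPM in control hearts and at 366, 290, 470 and 330 CPM in EAM hearts. All 4 EAM hearts were lower than any control. The difference was -0.996 ± 0.142, or 1.99-fold (edgeR, adjusted p = 0.000168), which missed the 2-fold limit by a small margin, so that Sod2 was not called. At an adjusted p under 0.01 without the fold limit, 31.1% of all genes were lower at D15. Sod2 did pass both limits with DESeq2, limma-voom, DESeq2's size factors or a replicate block, and without D15 control replicate 1 or 3 or D15 EAM replicate 3.

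At D10 Sod2 was lower in every EAM heart (539, 667, 696 and 677 CPM) than in every control heart (743, 728, 719 and 810 CPM), as were 3.75% of genes, with a difference of -0.23 ± 0.10 (edgeR, adjusted p = 0.33). At D21 EAM hearts held 429, 617, 683 and 371 CPM and overlapped the controls at 707, 725, 653 and 661 CPM, with a difference of -0.37 ± 0.18 (edgeR, adjusted p = 0.14). The EAM effect on Sod2 differed by -0.82 ± 0.22 between D10 and D15 (edgeR, adjusted p = 0.00676), under 2-fold. Of the markers of cardiomyocytes, cells rich in mitochondria, 4 of 7 were called lower at D15, against 12.9% of all genes, and their sum was 7234 to 18520 CPM in EAM hearts against 26653 to 31315 CPM in controls. D15 EAM replicate 3 had both the highest Sod2 and the highest cardiomyocyte sum of its group, and D15 EAM replicate 2 the lowest of both. At D10 0 of 7 were called, and the sum was 17770, 31465, 27288 and 30673 CPM in EAM hearts against 28214 to 33450 CPM in controls, and these groups overlapped. At D21 0 of 7 were called, and the sum was 13522 to 32021 CPM in EAM hearts against 27588 to 29389 CPM, with EAM replicate 3 above every control. The share of reads on genes of the mitochondrial genome also moved with Sod2, at 3.19 to 4.31% in D15 EAM hearts against 6.10 to 7.14% in D15 controls. It was 5.04% in D10 EAM replicate 1, which had the lowest Sod2 of the D10 hearts, and 5.73 to 6.23% in the other D10 EAM hearts. At D21 it was 3.92 to 6.77% in EAM hearts and 5.45 to 5.79% in controls. The part of cardiomyocyte content or of mitochondrial reads in the Sod2 values was not tested.

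Sod3 (ENSMUSG00000072941, chr5:52363791-52371418, plus strand), the secreted copper and zinc enzyme that binds the extracellular matrix, was at 76.1, 78.8, 89.9 and 75.5 CPM in D15 control hearts and at 194, 179, 161 and 225 CPM in D15 EAM hearts. It rose by 1.28 ± 0.11 (edgeR, adjusted p = 8.19e-06), with no overlap. At D21 every EAM heart (124, 104, 96.2 and 163 CPM) lay above every control (88.3, 83.4, 69.0 and 90.1 CPM), but the difference of 0.58 ± 0.18 did not pass (edgeR, adjusted p = 0.0389). At D10 the groups overlapped, with 114, 95.7, 101 and 77.4 CPM in EAM hearts and 82.1, 85.7, 77.9 and 70.3 CPM in controls. The effect differed by 0.95 ± 0.20 between D10 and D15 (edgeR, adjusted p = 0.00233) and by -0.69 ± 0.20 between D15 and D21 (adjusted p = 0.0174), both under 2-fold. At an adjusted p under 0.01 without a fold limit, 9.37% of all genes had a higher effect at D15 than at D10 and 16.7% a lower effect. Of the fibroblast markers, 3 of 7 (the collagens Col1a1, Col1a2 and Col3a1) were called higher at D15 and at D21, against 18.1% and 4.13% of all genes. The other 4 were not called on either day, with differences of -0.36 to 0.73 at D15 and -0.32 to 0.47 at D21. The sum over all 7 was 8225 to 16941 CPM in D15 EAM hearts against 1958 to 2486 CPM in controls. Their part in the Sod3 values was not tested.

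Ratios between genes of the same heart were taken after adding 0.5 CPM to each gene, and 12 ratios were compared at each of the 3 time points by an exact two-sided permutation test of the log2 ratio. With 4 against 4 hearts the smallest p is 0.0286. It was reached by 14 of the 36 tests, and after Benjamini-Hochberg adjustment over the 36 these stood at 0.0735, so that 0 of 36 passed 0.05. The ratios are therefore given as values.

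Of the membrane subunits, the ratio of Cyba to Cybb CPM was 1.08, 1.08, 0.984 and 1.18 in D15 control hearts and 0.297, 0.286, 0.310 and 0.276 in D15 EAM hearts. The log2 difference was -1.89 (exact permutation p = 0.0286, adjusted p = 0.0735). At D21 it was -0.89 (exact permutation p = 0.0286, adjusted p = 0.0735), with 0.391 to 0.595 in EAM hearts and 0.796 to 1.01 in controls. At D10 EAM replicate 1 had a ratio of 0.380, and the other EAM hearts 0.747 to 1.31, against 0.882 to 1.24 in controls.

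For the cytosolic subunits, Ncf4 to Ncf1 was 0.466 to 0.571 in D15 EAM hearts and 0.378 to 0.510 in controls, and the log2 difference at D10, D15 and D21 was 0.03, 0.29 and 0.03. Ncf1 to Cybb differed by 0.06, -0.48 and 0.07. Rac2 to its ubiquitous relative Rac1 was 0.339 to 0.393 in D15 EAM hearts and 0.0325 to 0.0442 in controls, a log2 difference of 3.25 (exact permutation p = 0.0286, adjusted p = 0.0735), and 2.27 at D21 (exact permutation p = 0.0286, adjusted p = 0.0735). Nox4 to Cybb was 0.00651 to 0.00985 in D15 EAM hearts and 0.124 to 0.189 in controls, a log2 difference of -4.35, next to fitted changes of 4.54 for Cybb and 0.21 for Nox4.

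Set against Ptprc, the leucocyte marker, Cyba was at D15 lower by 1.32 on the log2 scale and Cybb higher by 0.56, both without overlap (exact permutation p = 0.0286, adjusted p = 0.0735). The difference was 0.38 for Ncf4, 0.09 for Ncf1 and -0.25 for Rac2, whose EAM and control hearts overlapped. At D10 Ncf1 and Ncf4 relative to Ptprc were higher in every EAM heart than in every control, by 0.40 and 0.42 (exact permutation p = 0.0286, adjusted p = 0.0735). The D10 differences relative to Ptprc were -0.17 for Cyba, 0.33 for Cybb and 0.16 for Rac2, each with overlap. At D21 they were -0.61 for Cyba, 0.28 for Cybb, 0.35 for Ncf1, 0.38 for Ncf4 and -0.01 for Rac2. Sod2 to Sod1 was lower in every EAM heart at each time point, by 0.27 at D10, 0.28 at D15 and 0.35 at D21. At D15 Sod3 to Sod1 lay from 1.33 to 2.49 in EAM hearts and from 0.431 to 0.526 in controls. The log2 difference was 2.01, next to fitted changes of 1.28 for Sod3 and -0.73 for Sod1. It was 0.24 at D10 and 0.62 at D21.

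**Figure D3:**
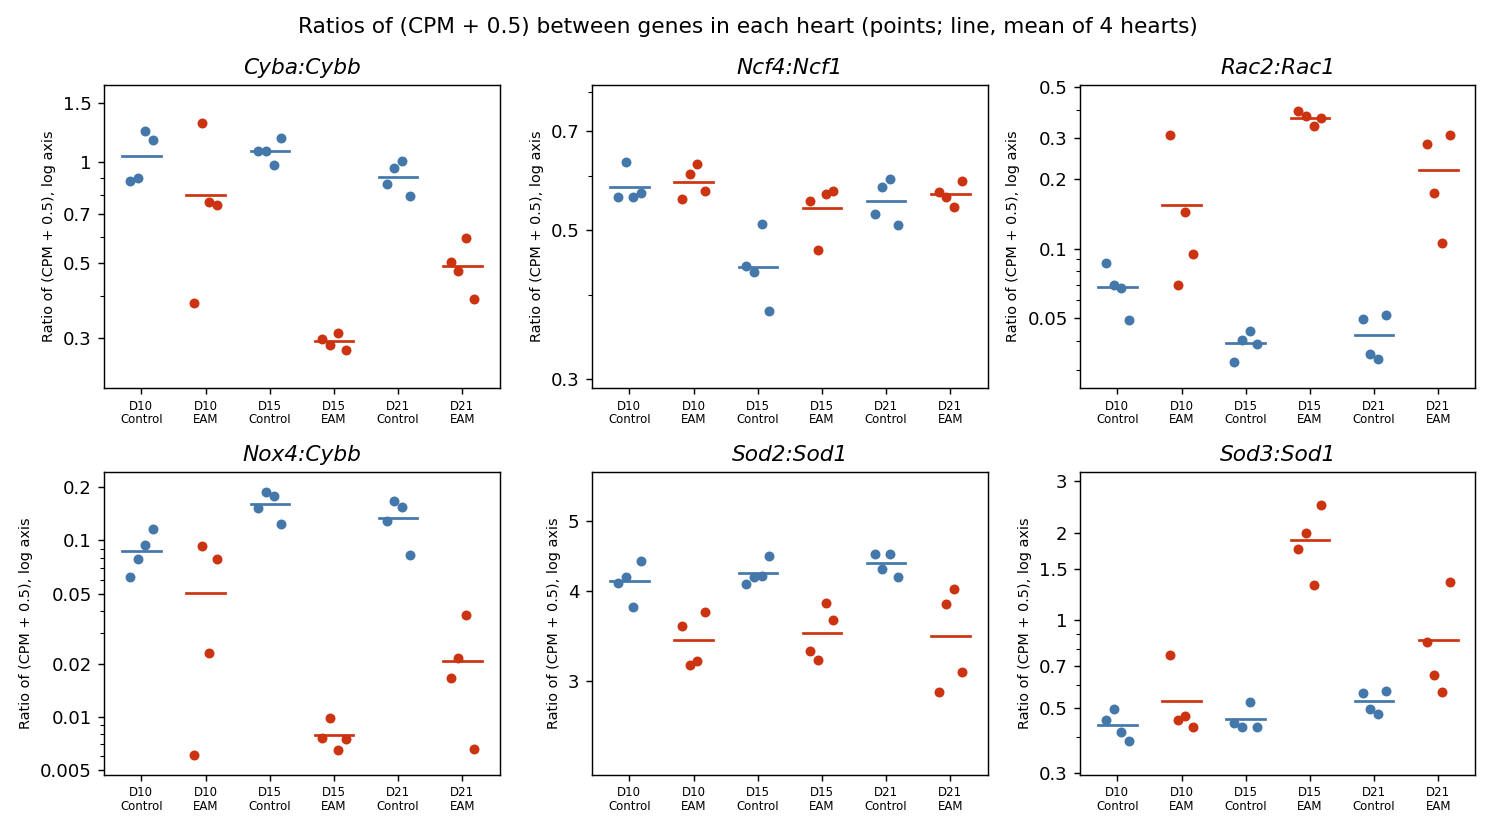
Ratio of the CPM (after adding 0.5 CPM) of paired genes in each heart on a log axis (points, with a line at the mean of 4 hearts), for control (blue) and EAM (red) hearts. Cyba to Cybb lies between 0.276 and 0.310 in D15 EAM hearts, below all controls, whereas Ncf4 to Ncf1 stays between 0.378 and 0.631 in all 24 hearts.

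Of 11 partner genes of the phagocyte oxidase, 10 were called higher at D15, against 18.1% of all genes, and 5 at D21, against 4.13%. Their medians were 3.04 and 2.01 on the log2 scale, against 0.02 and -0.01 over all genes tested. At D10 0 were called. An unadjusted p under 0.05 was reached by 5 of them in the higher direction there, against 9.71% of all genes. Vav1, an exchange factor that activates Rac, rose by 4.03 ± 0.11 at D15 and 2.92 ± 0.49 at D21. Hvcn1, a proton channel that balances the charge moved by the oxidase, rose by 3.84 ± 0.26 and 2.89 ± 0.43. The exception at D15 was Rac1, at 0.44 ± 0.07 (edgeR, adjusted p = 0.000238), which is under 2-fold. From D10 to D15 5 of the 11 were called higher, against 5.38% of all genes, among them Hvcn1 and Vav1.

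Of the other NOX and DUOX genes and their helpers, Nox1, Nox3, Noxa1 and Duoxa2 had at most 7, 1, 2 and 5 counts in any heart and were not tested. Of the 5 tested at D15, 3 were called lower and 0 higher, against 12.9% and 18.1% of all genes. These were Duox2 (-1.20 ± 0.24) and Duoxa1 (-1.24 ± 0.34), the maturation factor of DUOX1, with at most 84 and 33 counts in any heart, and Poldip2 (-1.002 ± 0.114), a protein that has been described to bind p22phox and raise NOX4 activity. At D21 none was called by edgeR, and 2 were lower at an unadjusted p under 0.05, against 21.2% of all genes. Duox2 missed the limit narrowly there, at -1.88 ± 0.38 (edgeR, adjusted p = 0.0108).

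Sod1, the cytosolic dismutase, was lower in D15 EAM hearts, at 89.9 to 122 CPM against 171 to 183 CPM, a difference of -0.73 ± 0.10 (edgeR, adjusted p = 0.000145) that did not reach 2-fold, and differed by -0.06 ± 0.11 at D21. Of 21 genes for peroxide removal, 4 were called higher and 1 lower at D15, against 18.1% and 12.9% of all genes. None was called at D10 or D21. At an unadjusted p under 0.05 edgeR gave 3 higher and 0 lower at D10, against 9.71% and 5.54% of all genes, and 11 higher and 2 lower at D21, against 25.2% and 21.2%. Their median was 0.23 at D15, against 0.02 over all genes. Gpx7 rose by 1.80 ± 0.21 and Gpx1, a glutathione peroxidase, by 1.59 ± 0.12. Prdx3, the mitochondrial peroxiredoxin, fell by 1.25 on the log2 scale (SE 0.16). Cat, the catalase of peroxisomes, was at -0.93 ± 0.10 (edgeR, adjusted p = 2.26e-05), under 2-fold.

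Hmox1, the inducible haem oxygenase, was the only one of 4 genes of the NRF2 axis to be called, at D15 (3.71 ± 0.24) and D21 (2.66 ± 0.48), against 18.1% and 4.13% of all genes called higher. Mpo, the peroxidase of neutrophil granules that uses the hydrogen peroxide made by the oxidase, rose by 5.43 ± 0.89 at D15 (edgeR, adjusted p = 0.000412). It was at 3.65 ± 0.79 at D21 (edgeR, adjusted p = 0.0131), and had at most 494 counts. The peroxidases Epx and Lpo had at most 8 and 5 counts in any heart and were not tested.

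**Figure D4:**
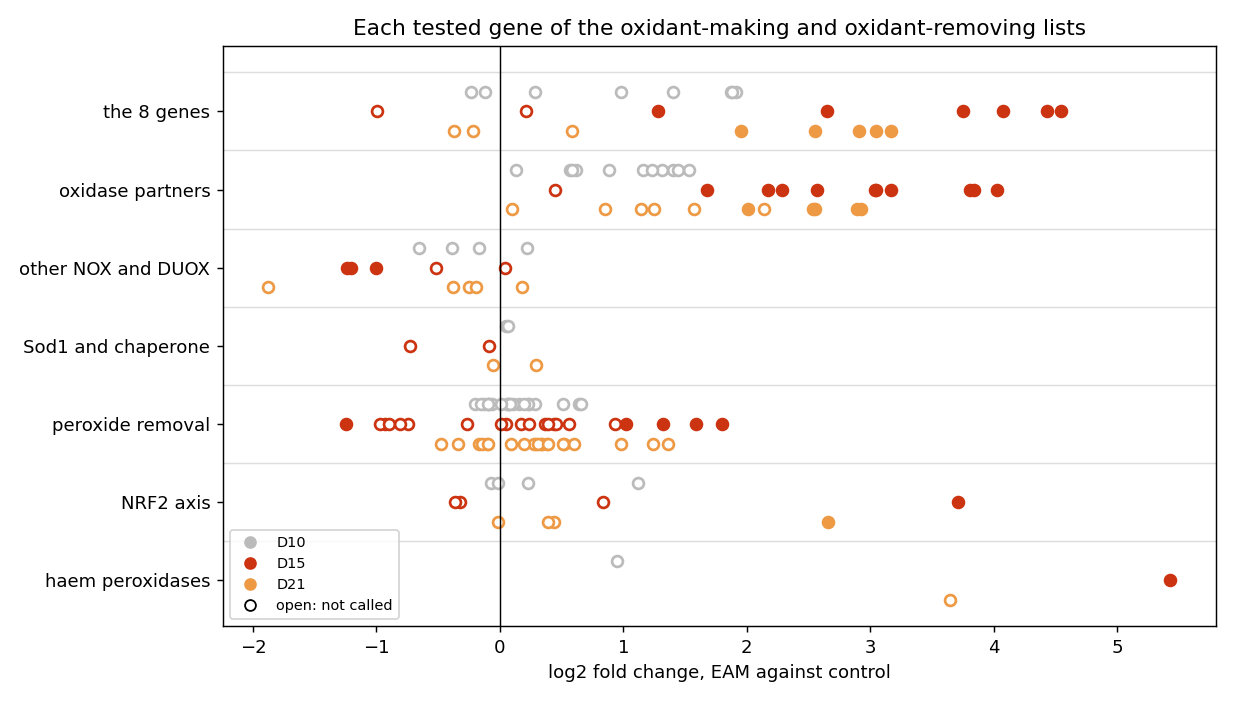
Fitted log2 fold change of EAM against control hearts for every tested gene of 7 lists, at D10 (grey), D15 (red) and D21 (orange), with filled points for genes past the adjusted p of 0.01 and the 2-fold limit. The oxidase partners lie to the right at D15 with a median of 3.04, whereas the peroxide removal genes lie on both sides of 0 with a median of 0.23.

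The genes most like each of the 8 were taken as those with the highest Pearson correlation of log2(CPM + 1) over the 24 hearts, among 11661 genes. These values describe hearts that differ in group and share the same libraries. Cybb was most like Tifab (r = 0.998), Myo1g and Myo1f (r = 0.995). Cyba was most like Ctsz, Cotl1 and Arpc1b (r = 0.997 to 0.996). Ncf1 came closest to Ncf4 (r = 0.995), followed by Cd53 and Fcer1g, and Ncf4 to Lcp1, Csf2rb and Fcer1g (r = 0.996). Rac2 was most like Pirb, Ncf4 and Fgr (r = 0.995 to 0.994). Sod2 was most like Mccc2, Nsun4 and Gnpat (r = 0.990 to 0.989), and Sod3 like Tsku and Loxl3 (r = 0.973 and 0.971). Nox4 had no close match, with r = 0.802 for Fibin, 0.801 for Tspan6 and 0.800 for Zfp354c.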

How the data were processed

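RNA from a portion of each of 24 mouse hearts was sequenced with a directional kit. Per the labels and the study's methods, the authors aligned read pairs to GRCm38 with HISAT2 2.0.4, removed duplicates with Picard, counted reads per Ensembl gene with featureCounts, discarding multi-mapped and ambiguous reads, and deposited the counts without normalization. How strand was treated in that step is not given here. The table of all samples and the tables of single samples differed in 0 cells, and the 92 spike-in features held 0 reads. No pair of replicates agreed within counting noise (chi-square per gene of at least 5.86).

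Groups and replicate numbers were taken from the sample labels. A gene entered a fit with 10 or more reads in 4 or more of its samples, and was tested in R 4.3.3 with edgeR 4.0.16 (TMM, quasi-likelihood test, Benjamini-Hochberg adjustment) and called at an FDR under 0.01 with at least a 2-fold change, the limits of the study. Each time point was fitted on its 8 samples, and differences between time points on all 24. Ratios used a pseudocount of 0.5 CPM and an exact permutation test. The alternatives were DESeq2 1.42.0, limma-voom (limma 3.58.1), the likelihood ratio test, other normalizations, filters and limits, all 12 control hearts, a replicate block, and leaving out each library. The scripts were tested on simulated data with known changes, under the same limits. Changes of 2-fold, which lie on the limit itself, were recovered for 33.5% of genes at D10 and D15 and 19.3% at D21. Changes of 4-fold were recovered for 91.3% at D10, 93.9% at D15 and 85.9% at D21.

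The 8 genes and all lists were chosen with earlier results of these data known. The network of the study was itself chosen on these samples. It holds Ncf1, Cyba and genes of the lists used here, among them Rac1 and Vav1. Named besides the 8 genes are, per list and day, the 2 called genes with the largest fold change in each direction, Rac1, Sod1, Cat, Hmox1 and Mpo, the ratio partner Ptprc, and for each of the 8 the 3 most correlated genes whose mean was 5 CPM or more. Gtf2ird2, the collagens, the genes at too few counts to test and the third gene called lower in its list were named after their values were seen. Gene positions and exon lengths are from GENCODE M21, and promoters from RefSeq. Amino acid sequences were not used here. Some genes that these rules name are not reported here.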

Additional observations from a re-analysis of the deposited data

Results flagged for a closer look

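In D10 EAM hearts the highest heart, replicate 1, stood far from the other 3 for Cybb, at 428 CPM against 34.7 to 101 CPM, and for Ncf1, at 154 CPM against 18.2 to 40.4 CPM. The gap to the nearest heart exceeded Dixon's 95% critical value for 4 samples, in 2 of 48 groups of hearts checked, and chance marks about 1 in 20 groups. Without this heart the fitted D10 changes were 0.64 for Cybb and 0.78 for Ncf1 on the log2 scale.

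The effect of EAM differed between D10 and D15 by a test of the difference for Rac2 (2.30 on the log2 scale, edgeR adjusted p = 0.00446), Sod3 (0.95, edgeR adjusted p = 0.00233) and Sod2 (-0.82, edgeR adjusted p = 0.00676). The last 2 are under 2-fold. When each library was left out in turn the difference ranged from 2.04 to 3.02 for Rac2, from 0.85 to 1.03 for Sod3 and from -0.96 to -0.68 for Sod2, and the adjusted p reached 0.0107, 0.00652 and 0.0174.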

How the results depend on the processing

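At D15 between 6 and 7 of the 8 genes were called under every alternative, the additional gene being Sod2. At D10 0 were called under every alternative except the comparison with all 12 control hearts, which gave 5, and in the whole table the count went from 0 to 52 with DESeq2, 47 with the likelihood ratio test, 1 with the replicate block and 681 with all 12 control hearts. At D21 the 5 became 0 with limma-voom, 4 with total counts, a minimum of 10 reads in every sample or the replicate block (Cyba was lost), and 0 to 5 when single libraries were left out. The whole-table count at D21, 807, became 1858 at an FDR of 0.05, 533 with at least 10 reads in every sample, 1733 with DESeq2, 1768 with the likelihood ratio test, 215 with limma-voom and 1933 with all 12 control hearts. Genes whose EAM effect changed from D10 to D15, 1 of the 8, became 5 at an FDR of 0.05, with DESeq2 or with the likelihood ratio test, 3 without the fold limit, with at least 10 reads in every sample or with limma-voom, 2 with total counts, 4 with the replicate block, and 0 to 6 when single libraries were left out. From D15 to D21, and between control hearts, 0 were called under every alternative. The cause was not tested.

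Total counts moved the median of all genes at D15 to 0.17 on the log2 scale, from 0.02. They changed the split of genes whose effect moved from D10 to D15 from 878 higher and 1199 lower to 1017 and 831, and from D15 to D21 from 447 and 150 to 243 and 229. The sign changed only for differences near 0. For Sod2, D15 against D10 controls, -0.0099 became 0.0255 with total counts, 0.0021 with no low-count filter and 0.0059 with at least 10 reads in every sample. For Cybb, D21 against D10 controls, -0.0491 became 0.0023 with total counts. With single libraries left out these ranged from -0.0374 to 0.029 and from -0.2262 to 0.1557, Sod3 in D15 against D10 controls from -0.04 to 0.0618, Nox4 at D10 from -0.3947 to 0.0422 and Nox4 at D15 from -0.0068 to 0.4197. Of the ratios, Ncf1 to Cybb at D10, Ncf4 to Ncf1 at D10 and D21, Ncf1 to Ptprc at D15 and Rac2 to Ptprc at D21 changed sign when single libraries were left out. Over the 8 genes in all contrasts, 896 of the left-out values kept direction and side of the limit, 34 lost it, 16 gained it and 14 changed sign. Under the other alternatives these numbers were 540, 8, 32 and 4.

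What the replicate numbers stand for is not in the labels. Deviations of same-numbered EAM and control hearts correlated over 0.1 in 3 of 4 pairs at D21 (0.0966 to 0.303), 2 at D10 and 0 at D15, so the numbers were not taken as pairs. With the paired view, the replicate block, 21 of 36 ratios had the same sign in all 4 pairs, which is a count and no test, against 0 past the adjusted p. Depth limits the low genes, such as Nox4 at 33 to 214 counts a heart.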
